A study of Rattus norvegicus with 8 samples.

Results

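Respiratory complex I takes electrons from NADH, hands them to ubiquinone and uses the energy to pump protons across the inner mitochondrial membrane, which drives ATP synthesis. It has a peripheral arm made of an N module, which oxidizes NADH, and a Q module, which reduces ubiquinone, and a membrane arm, which pumps the protons. Most of its subunits are encoded in the nucleus and imported, the rest are encoded by mitochondrial DNA, and assembly factors help to build the complex without staying in it. PINK1 is a mitochondrial kinase that marks damaged mitochondria for removal, and in flies and mice its loss has been linked to lower complex I activity.

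Complex I genes were described in RNA sequencing of thyroarytenoid muscle, the muscle that forms the body of the vocal fold. The members were all genes whose symbol starts with Nduf in the authors' gene table, 45 of 13899 symbols, with 37 subunits and 8 assembly factors. The samples were from 4 male rats that lack Pink1 on both alleles (Pink1-/-, a homozygous knockout) and 4 WT males, all of the Long Evans strain and 8 months old. For each gene the table gives an average log2 CPM (reads scaled to the size of the library, on the log2 scale) that the authors took over all 8 rats, and it holds 0 columns of values per rat. The average therefore mixes Pink1-/- and WT rats, has no SD, and allows no test of a difference between genotypes or between genes. The table also holds the authors' own comparison of the genotypes, which was not used, so no change with genotype is given. The depth of each library is unknown. The values count reads and were not divided by transcript length, so a gene with a higher value gave more reads and not necessarily more RNA molecules.

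The tissue label was checked with marker genes. Of 13 skeletal muscle markers 10 had an entry, with a median average log2 CPM of 10.19 and the fast myosin gene Myh4 highest at 14.75. Markers of other cell types were also read. Their medians were 6.77 for squamous epithelium (6 of 8 found, Krt4 highest at 8.18), 6.09 for airway glands and ciliated epithelium (4 of 5, Muc5b highest at 11.74), 4.69 for Schwann cells (3 of 3) and 5.11 for erythroid cells (2 of 4). Thyroid (2 of 3, Tg highest at 6.24), cartilage (3 of 4), adipocyte (3 of 3) and macrophage markers (3 of 3) had medians of 3.13, 2.11, 1.87 and 2.57, and the endothelial gene Cdh5 was at 6.02 (1 of 2). The part of these cells in the complex I values was not tested, and in bulk muscle fewer cells of a type and less RNA per cell cannot be told apart.

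The 7 nuclear-encoded core subunits include those that carry the flavin and the iron-sulfur clusters through which electrons pass. The start regions of 3 of the 7 are shown. They stand for the highest and the lowest read level of the core and for the YY1 motif, which a larger share of members than of other genes held. The RefSeq windows on GRCr8 run from 250 bases before the transcription start to 50 bases after it. All 3 lie on the minus strand, at chr9:72073556-72073855 for Ndufs1, chr1:210573649-210573948 for Ndufs8 and chr7:10110449-10110748 for Ndufs7. Capitals mark a match to 1 of 5 motifs that were searched, here the GABP/ETS core CCGGAAG read on the other strand in Ndufs1 and Ndufs8 and the YY1 core AAGATGGCG in Ndufs7.
Ndufs1: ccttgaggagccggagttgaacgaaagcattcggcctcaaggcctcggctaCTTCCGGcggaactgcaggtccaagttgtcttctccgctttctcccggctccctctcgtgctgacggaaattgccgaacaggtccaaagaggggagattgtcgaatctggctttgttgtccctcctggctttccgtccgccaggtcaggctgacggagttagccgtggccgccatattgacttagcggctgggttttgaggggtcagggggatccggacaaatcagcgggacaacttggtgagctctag
Ndufs8: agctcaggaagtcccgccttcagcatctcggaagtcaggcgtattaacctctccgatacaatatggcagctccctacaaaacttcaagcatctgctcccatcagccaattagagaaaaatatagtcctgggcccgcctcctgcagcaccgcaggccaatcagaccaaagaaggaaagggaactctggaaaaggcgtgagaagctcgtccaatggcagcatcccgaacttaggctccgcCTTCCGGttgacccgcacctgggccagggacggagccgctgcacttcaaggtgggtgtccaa
Ndufs7: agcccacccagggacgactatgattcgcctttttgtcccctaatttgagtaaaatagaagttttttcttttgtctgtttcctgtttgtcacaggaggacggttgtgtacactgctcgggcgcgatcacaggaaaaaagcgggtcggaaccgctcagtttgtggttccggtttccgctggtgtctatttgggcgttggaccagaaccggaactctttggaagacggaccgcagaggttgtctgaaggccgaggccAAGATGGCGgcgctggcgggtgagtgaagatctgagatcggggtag
Counted from the transcription start, the match began at -199 in Ndufs1, at -12 in Ndufs8 and at 4 in Ndufs7. A match is a description of the letters and not a binding site.

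The core subunits of the N module gave some of the highest read levels of all members. Ndufs1 (ENSRNOG00000011849), the large iron-sulfur subunit that passes electrons out of the N module, was at 8.37 average log2 CPM, or 330.4 CPM, a percentile of 99.1 among all symbols. Ndufv2 (ENSRNOG00000042503), an iron-sulfur subunit next to the flavin, was at 7.51, and Ndufv1 (ENSRNOG00000018117), which binds NADH and the flavin, was at 7.38. In the Q module, Ndufs7 (ENSRNOG00000024568), whose iron-sulfur cluster hands electrons to ubiquinone, was at 6.69, and Ndufs3 (ENSRNOG00000009155), another core subunit of the Q module, was at 6.41. Ndufs8 (ENSRNOG00000017446), which carries iron-sulfur clusters between the modules, was the lowest of the core at 5.49 average log2 CPM. The 27 subunits of the module lists outside the core had a median of 5.71 average log2 CPM, as reads and not per length, and every core gene named here but Ndufs8 lay above it.

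**Figure D1:**
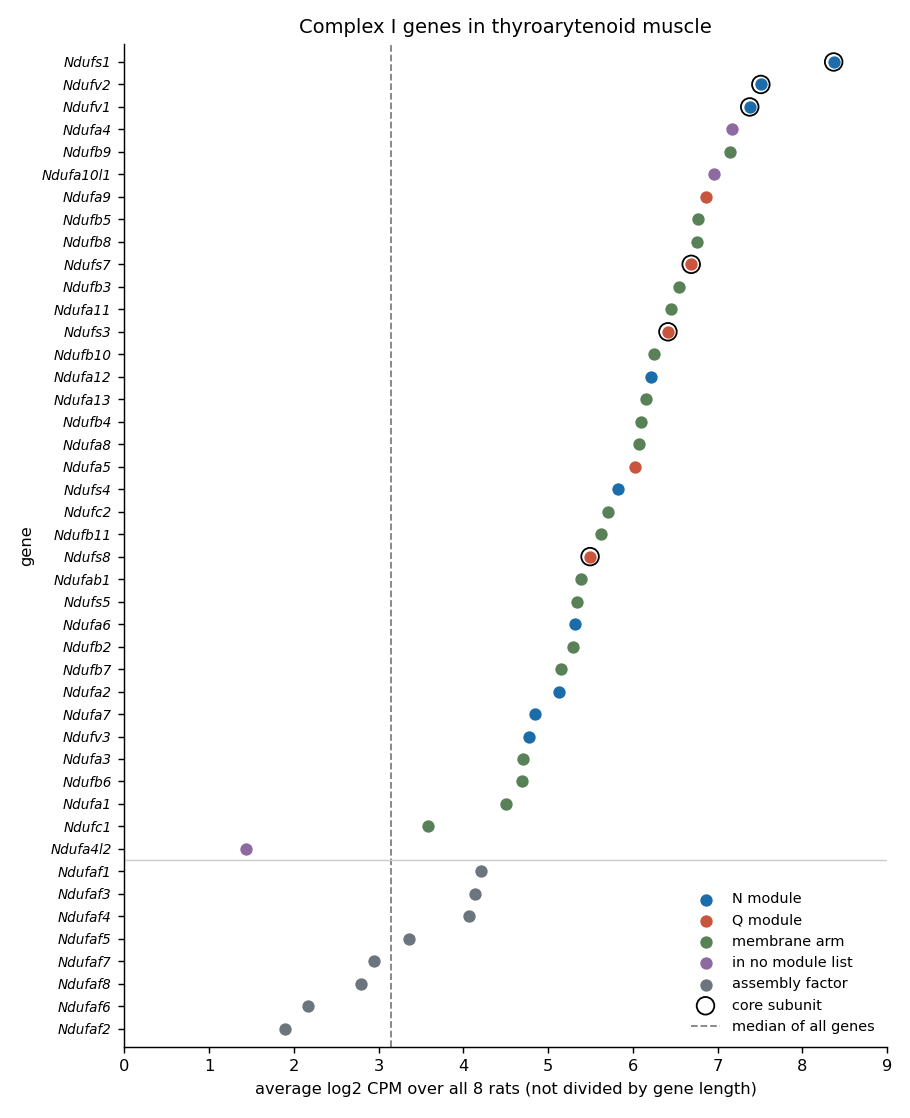
Average log2 CPM of each complex I gene over all 8 rats (1 point per gene, horizontal axis), with subunits above and assembly factors below the grey line, colored by module and ringed where the gene is a core subunit (1 member is not drawn). Subunits run from 8.37 for Ndufs1 to 1.44 for Ndufa4l2, the assembly factors lie between 1.90 and 4.21, and the dashed line is the median of all genes at 3.15.

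The other subunits of the N module were lower as reads. Ndufa12, which sits where the late assembly factor Ndufaf2 had been, was at 6.22 average log2 CPM and Ndufs4, whose loss causes Leigh syndrome in humans, at 5.82. Ndufa6, which holds an acyl carrier protein on the complex, was at 5.32, Ndufa2, with a thioredoxin-like fold, at 5.13, and the accessory subunit Ndufa7 at 4.85. Ndufv3, an accessory subunit of the flavin end of the complex, was the 1 member on more than 1 row, at 4.78 on the row that was used (ENSRNOG00000001182) and 4.26 on the second row (ENSRNOG00000027593). The 9 of 10 listed N module genes with an entry had a median of 5.82 average log2 CPM, and its 3 core genes (7.38 to 8.37) lay above its 6 accessory genes (4.78 to 6.22). In the Q module, with 6 of 6 listed genes and a median of 6.55, the accessory subunits Ndufa9, a nucleotide-binding protein where the arms meet, and Ndufa5 were at 6.87 and 6.03. The order of the N and Q module medians rests on how subunits at the joints are placed, since without Ndufa9, Ndufa6, Ndufa7 and Ndufa12 the N module median was 6.60 and the Q module median 6.41 average log2 CPM.

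The membrane arm, with 19 of 21 listed genes, had a median of 5.71 average log2 CPM and ran from 3.58 to 7.15. Ndufb9, which like Ndufa6 belongs to the family of proteins that hold an acyl carrier protein, was the highest at 7.15, and Ndufab1, that acyl carrier protein itself, was at 5.39. Ndufb5 and Ndufb8, 2 subunits of the far end of the arm, followed at 6.77 and 6.76. The 4 subunits with paired cysteines on the intermembrane side did not stand together in reads, with Ndufb10 at 6.25, Ndufa8 at 6.07, Ndufs5 at 5.34 and Ndufb7 at 5.15. Ndufa11 and Ndufa13, which cross the membrane, were at 6.45 and 6.15. The lowest reads of the arm came from Ndufa3 at 4.70, Ndufb6 at 4.69, Ndufa1 at 4.51 and Ndufc1 at 3.58, all accessory subunits. The other membrane arm genes Ndufb3 (6.54), Ndufb4 (6.09), Ndufc2 (5.71), Ndufb11 (5.62) and Ndufb2 (5.30) lay between these in average log2 CPM. Transcript lengths were not at hand, so whether this order would hold per length was not tested.

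All 37 subunits together had a median of 6.07 average log2 CPM, at a percentile of 92.9 among all symbols. Of them 20 lay over 6, 15 between 4 and 6, and 2 under 4. In all, 35 of 37 lay above 4.49, the third quartile of all symbols, and the exceptions were Ndufc1 and Ndufa4l2. The subunits summed to 3104 CPM, or 0.305% of all CPM in the table. The single highest gene of the table held a large part of that total. This share and the later shares of the table therefore depend on that gene and are not shares of a typical muscle transcriptome.

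Ndufa4 and Ndufa4l2, which bear complex I names, stood far apart. Ndufa4, which is now counted as a subunit of complex IV, was at 7.17 average log2 CPM, and Ndufa4l2, its paralog that hypoxia induces in other cells, was at 1.44, the only subunit under the median of all symbols. Ndufa10l1, a relative of the membrane arm subunit Ndufa10, was at 6.95. Under their own symbols, 3 of 37 listed subunits had no entry, Ndufa10, Ndufb1 and Ndufs6. Ndufa10 is the subunit whose phosphorylation depends on PINK1 in mouse cells, and reads of Ndufa10 and Ndufa10l1 may not be told apart.

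Some complex I genes stood in the table under other names. The entries LOC679739 and LOC100912599 are both described as iron-sulfur protein 6, the product of Ndufs6, and both had 4.80 average log2 CPM (27.8 CPM). Only 0.763% of all entries share their value with another entry, and how reads were divided between these copies was not tested. LOC100361934, described as beta subcomplex 4, was at 3.28, against 6.09 for Ndufb4, and LOC108348144, described as alpha subcomplex 1, was at 2.15, against 4.51 for Ndufa1. RefSeq names 45 pseudogenes and 8 like genes of the 45 members, and 18 of 37 subunits have at least 1. Ndufb4 has the most, with 7 pseudogenes and 4 like genes, Ndufaf4 has 5 pseudogenes, and Ndufa2, Ndufa5 and Ndufa13 have 4 each, so that their counts are uncertain where reads fit several copies.

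The assembly factors gave far fewer reads than the subunits. All 8 had an entry, with a median of 3.15 average log2 CPM (percentile 50.0 among all symbols), and their summed CPM of 86.0 was 0.00845% of the table. The median of the subunits was 2.92 log2 units above that of the assembly factors, as reads and not per length. The ranges overlapped, since Ndufa4l2 lay below all 8 assembly factors, and Ndufaf1, Ndufaf3 and Ndufaf4 lay above Ndufc1, the lowest subunit of the module lists. Ndufaf1 (4.21), a member of the machinery that builds the membrane arm, and Ndufaf3 (4.14) and Ndufaf4 (4.06), which work together on the Q module, were the highest. Ndufaf5, which hydroxylates Ndufs7, was at 3.35, its partner Ndufaf8 at 2.80, and Ndufaf7, a methyltransferase, at 2.94. Ndufaf6, an early factor, was at 2.17, and Ndufaf2, a relative of Ndufa12 that acts when the N module is added, was the lowest at 1.90 average log2 CPM.

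Assembly factors with other names were spread around the middle of the table in reads. Of 11 listed, 10 had an entry, with a median of 3.62 average log2 CPM, 2 below the median of all symbols and 2 above the third quartile, Ecsit and Acad9. Ecsit, a partner of Ndufaf1 that also acts in innate immune signaling, was at 6.06, and Acad9, the flavoprotein of that machinery, was at 4.55. Its membrane partner Tmem126b was at 2.68, and Nubpl, which is needed for iron-sulfur insertion, was the lowest at 1.48. Tmem126a (4.49), Dmac2 (4.48), Foxred1 (3.72), Dmac1 (3.51), Tmem186 (3.48) and Timmdc1 (3.47) lay between. The partners Ndufaf1, Ecsit, Acad9 and Tmem126b therefore ran from 2.68 to 6.06 average log2 CPM.

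The subunits encoded by mitochondrial DNA, which form the proton-pumping core of the membrane arm, gave more reads than any nuclear subunit. All 7 had an entry, with a median of 11.87 average log2 CPM. Mt-nd1 and Mt-nd4 were at 12.55 and 12.50, Mt-nd5 at 11.91, Mt-nd2 at 11.87 and Mt-nd3 at 11.09. Mt-nd6 (9.38) and Mt-nd4l (8.94) were the lowest, and Mt-nd4l was still 0.57 log2 units above Ndufs1. Together they held 22725 CPM, or 2.23% of the table, 7.32 times the summed CPM of the nuclear subunits. The share again depends on the highest gene of the table, which lay far above Mt-nd1, and the ratio to the nuclear subunits does not. Mt-nd6 lies on the other strand of mitochondrial DNA from its neighbors, and whether the counting used strand was not stated.

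Beside the other complexes of oxidative phosphorylation, the complex I subunits had a lower median read level. The median average log2 CPM was 6.07 for the 37 complex I subunits, against 7.61 for complex II (4 of 4 listed genes), 7.25 for complex III (9 of 9), 6.99 for complex IV (10 of 11) and 7.09 for complex V (15 of 15), without a test, since genes are not replicates. All these lists hold nuclear genes only. They are not alike, since that of complex I takes every subunit symbol, with 27 accessory subunits, Ndufa4, Ndufa4l2 and Ndufa10l1. Of the core genes named here, Ndufs1 (8.37), Ndufv2 (7.51) and Ndufv1 (7.38) lay above the medians of complexes III, IV and V. Ndufs7 (6.69), Ndufs3 (6.41) and Ndufs8 (5.49) lay below them. Single genes overlapped widely. Ndufs1 at 8.37 lay above Uqcrc2, the highest gene of complex III, at 8.12, but below Sdha of complex II at 9.06 and Atp5f1b of complex V at 10.89. At the low end, Cox7a1, the muscle form of a complex IV subunit, was at 0.56 and Uqcr10 of complex III at 3.18, both below Ndufc1. The highest listed complex IV gene, Cox6a2, was at 8.66. Whether the low Cox7a1 value comes from its annotation or from how reads were assigned was not tested.

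**Figure D2:**
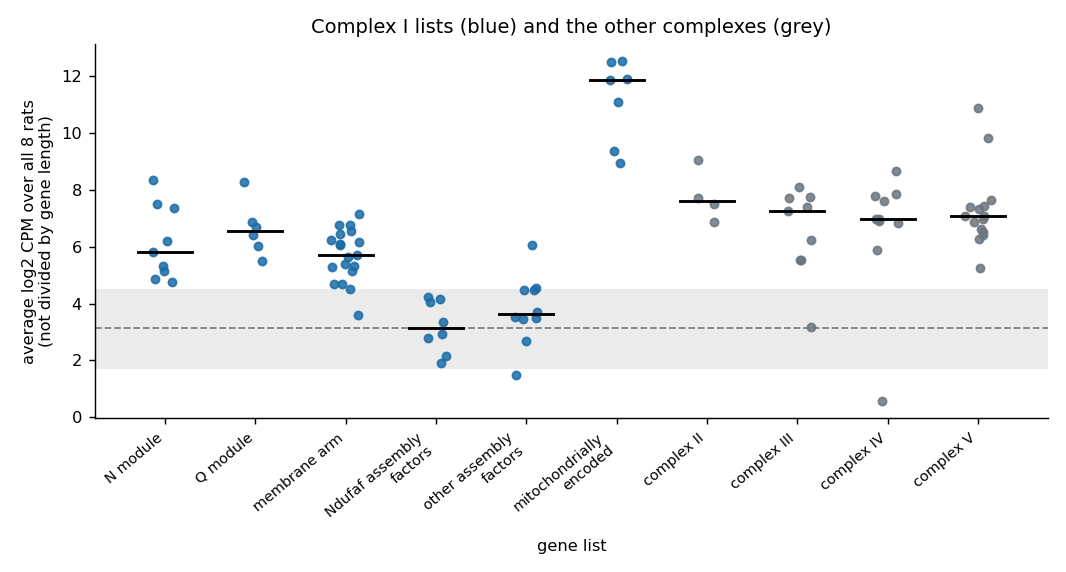
Average log2 CPM over all 8 rats for each gene (1 point per gene, vertical axis) in the complex I lists (blue) and the lists of the other complexes (grey), with black bars for list medians, a dashed line for the median of all genes and a grey band from the first to the third quartile. The Ndufaf genes have their median of 3.15 at that of all genes, and the mitochondrially encoded subunits have theirs at 11.87.

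The start regions of the members were compared with those of other genes in RefSeq. A promoter window was found for 40 of 45 members. Ndufb9, Ndufa10l1, Ndufa8 and Ndufaf6 were among those without one. Both strands were searched for cores of factors known to act on nuclear genes of mitochondrial proteins, and matches to different motifs were allowed to overlap. The NRF1 core (GCGCA, any base, then GCGC) was in 8 of 40 member windows (20%), against 9.54% of 9883 other genes of the table and 4.71% of all 27457 RefSeq windows. The YY1 core AAGATGGCG was in 7 (17.5%), against 3.64% of other genes of the table and 1.93% of all. The GABP/ETS core CCGGAAG was in 9 (22.5%), against 16.5% and 9.22%. The estrogen-related receptor site TNAAGGTCA was in 1 window, that of Ndufb4 (2.50%), against 0.597% and 1.15%. The SP1 core GGGCGG ran the other way, in 18 windows (45.0%), against 61.8% of other genes of the table and 34.9% of all. Of the members 11 had none of the 5 motifs (27.5%), against 29.6% of other genes of the table. The median GC content was 57.2% in members and 61.0% in other genes of the table.

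The NRF1 core was found in Ndufa11, with 2 matches, Ndufa12, Ndufb4, Ndufa5, Ndufs5, Ndufv3, Ndufaf4 and Ndufaf5. None of these is a core subunit, and 0 subunits had both this core and the GABP/ETS core. Among 33 subunit windows, 6 held the NRF1 core and 7 the GABP/ETS core, so both together would be rare. The share of other genes with both was not computed, so neither absence is read as a trait of the members. The YY1 core was found in Ndufa9, Ndufb8, Ndufs7, Ndufs4, Ndufa6, Ndufa2 and Ndufaf8. These genes ran from 2.80 to 6.87 average log2 CPM, so members with the same match did not share a read level. Of the core subunits with a window, Ndufs1 and Ndufs8 had the GABP/ETS core and lay at the 2 ends of the core in reads, and Ndufv1 and Ndufv2 held none of the 5 motifs.

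Many members share their start region with a neighbor transcribed the other way. Such a head-to-head start within 1000 bases was present for 16 of 40 members (40%), against 15.0% of other genes of the table and 10.3% of all. A head-to-head start was present for 11 of 33 subunits and 5 of 7 assembly factors with a window. Ndufs1 starts beside Eef1b2, a translation elongation factor, and their levels were 8.37 and 4.37 average log2 CPM. Ndufb5 (6.77) pairs with the mitochondrial ribosome gene Mrpl47 (3.89), Ndufb11 (5.62) with Rbm10 (4.42), Ndufa7 (4.85) with the ribosomal protein gene Rps28 (4.39) and Ndufa2 (5.13) with Ik (4.82). Ndufaf5 (3.35) pairs with Esf1 (4.03), Ndufaf7 (2.94) with Cebpz (4.37), Ndufaf2 (1.90) with the DNA repair gene Ercc8 (2.90) and Ndufaf8 (2.80) with Tepsin (2.22). Copies were counted for members only, so the levels of the partners are uncertain where reads fit several copies. Among these 9 pairs, those with a value for both genes, the 5 subunits were above their partners and 3 of 4 assembly factors below theirs, as reads and not per length. These 5 subunits lay at percentiles of 80.8 to 99.1 among all symbols and these 4 assembly factors at 27.6 to 54.3. Most genes of the table lie below such subunits, so the split is no result about the pairs. Other head-to-head pairs were not compared.

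**Figure D3:**
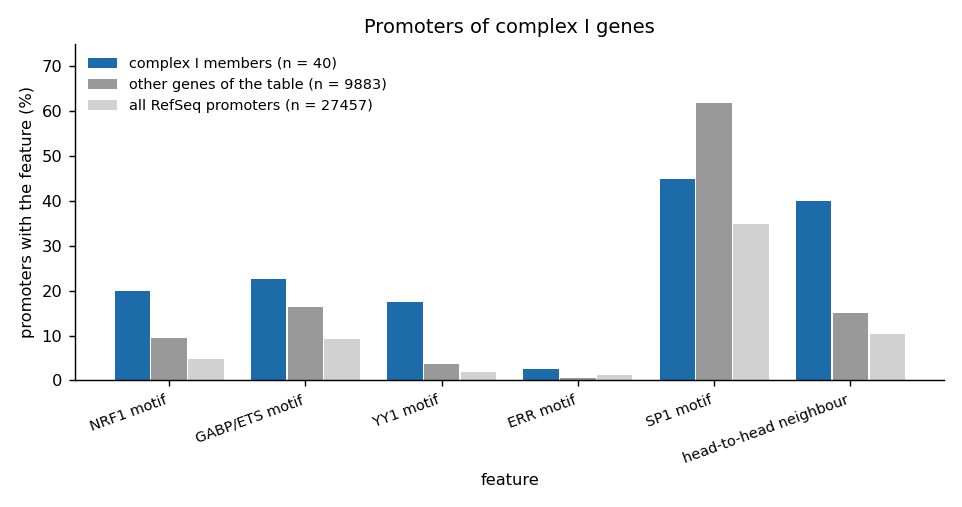
Share of promoter windows in percent (vertical axis) with each motif or with a head-to-head neighbor, for the complex I members (blue), the other genes of the table (dark grey) and all RefSeq promoters (light grey). Bars of the members stand above the other genes of the table for every feature but SP1, where they are at 45.0% against 61.8%. The bar of the estrogen-related receptor site (ERR) rests on 1 of 40 windows. The shares carry no test because the members are a fixed set of genes.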

How the data were processed

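RNA sequencing covered thyroarytenoid muscle of 8 rats, 4 Pink1-/- and 4 WT, grouped by the genotype in their labels. The authors' tools, per the submitters' processing notes, were RSEM (read estimates per gene) and edgeR 3.9. Not given in the sources used here are genome build, annotation, strand of counting and low-count filter. The deposited file is the authors' gene table with 14016 entries. Its average log2 CPM per gene, computed by the authors over all samples, is the only measurement used. The other columns hold the authors' own comparison (log2 fold change, likelihood ratio, p-value, adjusted p-value and status) and were not used. The table has 0 columns of values per rat, so no depth, SD or test could be computed, and the planned count test of the genotypes was not run.

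Of 64 symbols on more than 1 row, the row with the highest average was taken. The members and lists were chosen with earlier results of these data known. 1 member is not reported here by name. The other members could be named, with core subunits, assembly factors, repeated symbols, Ndufa4 and Ndufa4l2 in full. The rule also asked for the 5 highest and the 5 lowest subunits per coding length. Coding lengths were not at hand, so these and the module medians are given by average log2 CPM. The partners of head-to-head starts and the entries named LOC fall outside that rule and were chosen afterwards. CPM was taken as 2 to the power of the average. Names, copies and promoters came from RefSeq (GRCr8), where 45 of 45 members matched by symbol. Calculations used pandas 2.3.3 and numpy 2.4.6 in Python 3.11.15, with plots from matplotlib 3.10.9. The percentile, the motif search and the group summary were checked on made-up inputs with known answers.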

Additional observations from a re-analysis of the deposited data

How the results depend on the processing

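Of 16 alternatives run, 8 left the value within 0.005 and 8 moved it further, none of them with a test. Counting every row gave a subunit median of 6.05 average log2 CPM in place of 6.07, a difference from the assembly factors of 2.90 in place of 2.92 and a percentile of 93.0 in place of 92.9. The percentile was 91.7 among entries of at least 1 average log2 CPM. Adding 1 entry described as iron-sulfur protein 6, an alternative chosen after seeing the data, gave a subunit median of 6.05 and an N module median of 5.57 in place of 5.82. Without the 4 subunits at the joints of the modules, the N module median was 6.60 and the Q module median 6.41 in place of 6.55. The order of these 2 medians therefore depends on that choice, and here the membrane arm at 5.71 was below both. With the iron-sulfur protein 6 entry added, the N module at 5.57 lay below the membrane arm at 5.71. The order of the N module and the membrane arm thus depends on that entry. Not run were values per coding length, for want of lengths, and the genotype test and leaving out each rat, for want of values per rat. No paired analysis was possible because single rats have no values here. What depth limits cannot be stated without library totals.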
